A study of Mus musculus with 10 samples.

Results

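The 100 kappa light chain variable segments of the mouse, the Igkv genes, were examined in the popliteal lymph node, the node behind the knee that receives lymph from the foot. They were every row of the deposited table whose biotype was IG_V_gene and whose name began with Igkv, 100 of 54987 genes. The table also listed 60 Igkv pseudogenes, which were kept apart. The mice were BALB/c males aged 6 to 8 weeks, and nodes were taken on day 15. The 3 Acu libraries, numbered 4, 6 and 28, came from mice given 0.1 ml of complete Freund's adjuvant under the skin of the right hind paw, together with acupuncture, at ST36 per the series title. Complete Freund's adjuvant is an oil emulsion with killed mycobacteria that sets off arthritis. The 4 AIA libraries, numbered 5, 10, 31 and 38, came from mice given the same adjuvant without acupuncture. The 3 Control libraries, numbered 15, 16 and 17, came from mice given an equal volume of saline. A sham acupuncture group that the protocols mention was not analysed here. The labels do not say from which leg the node came or that each library was 1 mouse, so the spread between libraries may be technical in part.

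Each developing B cell joins 1 Igkv segment to 1 of a few short Igkj segments, and the joined exon is spliced to the single constant gene Igkc. The resting repertoire therefore holds many different segments, and B cells that respond to an antigen divide and carry the same segment into their progeny. Plasma cells, which secrete antibody, make far more light chain RNA per cell than resting B cells do. A few plasma cells can thus outweigh many resting B cells in bulk RNA, and fewer cells of a type cannot be told apart from less RNA per cell in such libraries.

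The segments lay on chromosome 6 (mm10) between 67555497 and 70704177, with 38 on the plus strand and 62 on the minus strand. Igkc lay beyond them at chr6:70726435-70726966. The number after Igkv names the family, and there were 20 families. Gene lengths ran from 338 to 501 bases, with a median of 362. The 95 segments with a GENCODE vM21 transcript of the listed gene length were compared with one another, and the rest were not compared. The median identity to the nearest was 91.1%. Of these 95 segments, 20 had a neighbour at 95% or more and 25 had none at 85%. Reads of close copies can be split between them, and the GENCODE sequences are those of the C57BL/6J reference, while these mice were BALB/c. The effect of either on the values below was not tested.

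The germline 3′ ends are shown for the segments that led a library with at least 500 Igkv reads, and for Igkv4-59. This stretch enters the third complementarity determining region, the part of the light chain where segments differ most. Each line gives the last 60 bases of the coding strand (GRCm38), and the capitals start at the codon of the second conserved cysteine. The ends lie at chr6:70672318-70672377 on the plus strand for Igkv3-4, at chr6:69575975-69576034 on the minus strand for Igkv4-57 and at chr6:68437866-68437925 on the plus strand for Igkv15-103. Those of Igkv1-135 and Igkv10-96 lie at chr6:67610449-67610508 on the plus strand and chr6:68631963-68632022 on the minus strand. Those of Igkv12-41 and Igkv4-59 lie at chr6:69858420-69858479 and chr6:69438218-69438277, both on the minus strand.
Igkv3-4: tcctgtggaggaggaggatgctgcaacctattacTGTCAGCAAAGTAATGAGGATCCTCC
Igkv4-57: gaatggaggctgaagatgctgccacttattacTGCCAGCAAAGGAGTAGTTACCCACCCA
Igkv4-59: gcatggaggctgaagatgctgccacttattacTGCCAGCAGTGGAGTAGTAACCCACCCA
Igkv15-103: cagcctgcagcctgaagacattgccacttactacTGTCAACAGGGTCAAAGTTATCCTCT
Igkv1-135: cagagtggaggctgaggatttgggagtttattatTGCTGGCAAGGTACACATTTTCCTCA
Igkv10-96: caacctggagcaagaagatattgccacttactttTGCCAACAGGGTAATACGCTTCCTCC
Igkv12-41: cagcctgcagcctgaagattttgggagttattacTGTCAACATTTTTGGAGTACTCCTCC
The capital stretch of Igkv3-4 is identical to that of Igkv3-5, and the stretch of Igkv4-59 is identical to those of Igkv4-68 and Igkv4-72. Igkv15-103 is the sole member of its family, and its nearest segment among those compared, Igkv11-125, was only 72% identical.

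Recovered reads per library lay between 13269763 and 18926894, and genes above 0 numbered 15116 in AIA 10 against 21224 to 24411 elsewhere. The tissue label was checked against B cell genes such as Cd79a, part of the B cell receptor. Their summed level over 8 genes was 999 and 1352 FPKM (fragments scaled by gene length and library size) in Acu 6 and 28, 991 to 1269 in the AIA libraries and 966 in Control 16. It was 6.74 in the library labelled Acu 4, 9.53 in Control 15 and 6.67 in the library labelled Control 17, so these 3 held little B cell RNA, though none of the 8 genes was at 0. The libraries labelled Acu 4 and Control 17 held 7216 and 10988 FPKM of 7 decidual and placental genes, against at most 1.98 in the other 8. The 6 adipocyte genes reached a sum of 16966 FPKM in Control 15, 6142 FPKM in Control 16 and 40.7 to 264 FPKM elsewhere. The part of these tissues in the results below was not tested. Calls of single segments, summed levels and the effective number of segments are given with and without libraries concerned. Group means of shares, and the segments whose shares did not overlap between groups, are given with all libraries only.

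The summed Igkv level spanned several orders of magnitude, and the highest levels were in AIA. It was 399 FPKM in the library labelled Acu 4, 22826 in Acu 6 and 12434 in Acu 28. In AIA it was 31643, 872, 29497 and 37044 FPKM in libraries 5, 10, 31 and 38. In Control 15, 16 and 17 it was 26.8, 461 and 9.72 FPKM. Every AIA library thus stood above every Control library, while the library labelled Acu 4 stood below Control 16. As a share of all FPKM the segments took 0.0940%, 6.66% and 3.44% in Acu 4, 6 and 28, 5.55%, 0.129%, 6.21% and 7.23% in AIA 5, 10, 31 and 38, and 0.00587%, 0.108% and 0.00241% in Control 15, 16 and 17. The reads behind these values numbered 92045 to 231471 in the 5 deepest libraries, which were Acu 6 and 28 and AIA 5, 31 and 38. There were 3618 in AIA 10, 2632 in Control 16 and 2351 in the library labelled Acu 4. Only 165 lay behind the value of Control 15 and 56 behind that of the library labelled Control 17, too few to rank segments.

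**Figure D1:**
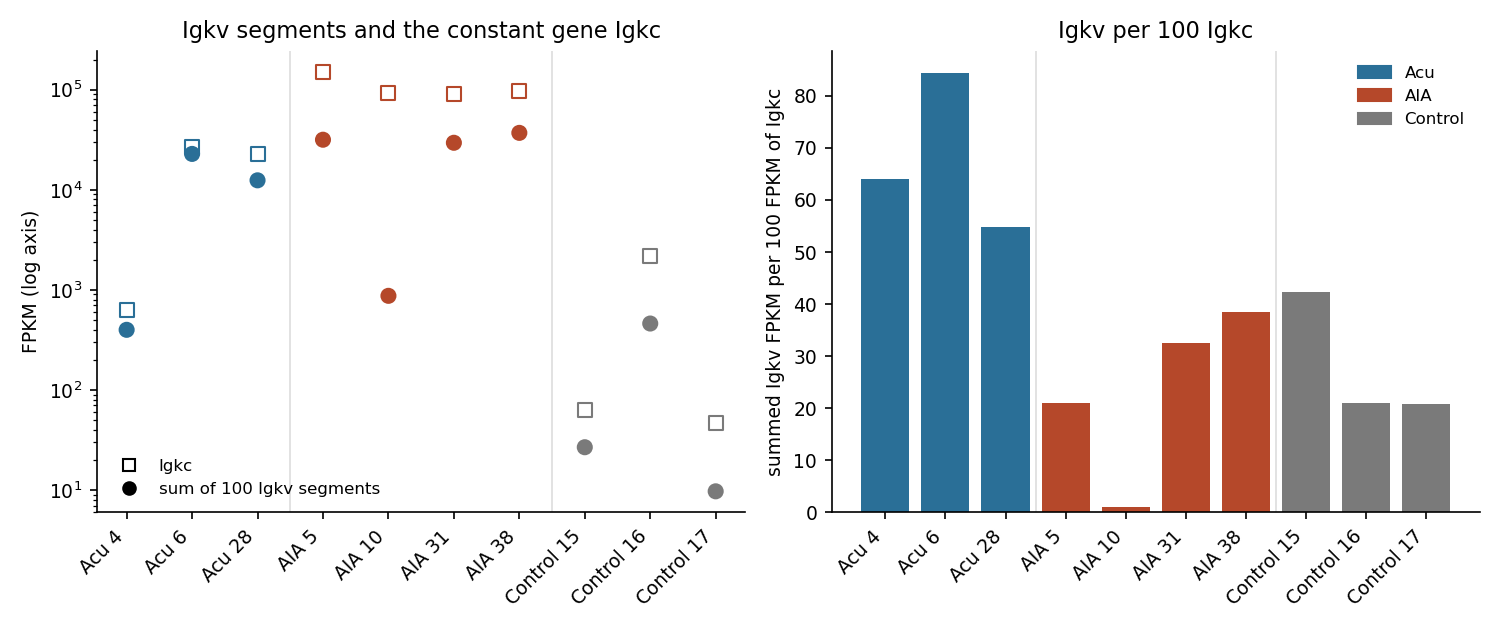
Left, summed FPKM of the 100 Igkv segments (filled circles) and FPKM of Igkc (open squares) in each library on a log axis; right, summed Igkv FPKM per 100 FPKM of Igkc. AIA 10 holds 93548 FPKM of Igkc beside 872 FPKM of Igkv, and the 3 Acu bars, 54.8 to 84.4, lie above all others.

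Between AIA and Control the question was what the adjuvant did to kappa segment RNA. The segments were higher in AIA nodes as a class: 99 segments had FPKM above 0 in at least 1 library, and all 99 had a higher mean log2(FPKM + 1) in AIA, at a median difference of 5.06, against −0.02 over 32104 genes. The mean log2 of the summed level was 13.69 in AIA and 5.69 in Control, a difference of 8.00. A two-sided exact permutation test gave p = 0.0571 for 4 against 3 libraries, the smallest that this design allows, and 0.171 after adjustment over the 3 comparisons. Igkc stood 9.12 higher on the log2 scale (limma SE 1.64, adjusted p = 0.0617).

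No single segment passed limma's test across 17010 genes with all 10 libraries in the fit. The called count was 0 of 95 tested segments, beside 0.0118% of all genes called higher, and 77 segments were higher and 0 lower at an unadjusted p under 0.05, beside 11.6% and 13.4% of all genes. voom on recovered reads also called 0, and limma with array weights called 77 higher and 0 lower, beside 8.22% and 11.3% of genes. The libraries of AIA and Control did not overlap for 36 of the 95 segments, all higher in AIA, against 11.4% of all genes tested. A segment could reach the filter, 0.5 FPKM in at least 3 libraries, through the AIA libraries alone, so these counts describe the segments and lend no support to a change. Of the 5 segments below the filter, Igkv1-131 was at 0 in every library, and the other 4, Igkv1-35 and Igkv8-26 among them, stayed at or under 2.61 FPKM.

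Igkv4-57 had the smallest p of the 95. It stood at 178, 133, 379 and 363 FPKM in AIA 5, 10, 31 and 38, against 1.04, 2.94 and 0 FPKM in Control 15, 16 and 17. All 4 AIA libraries were above all 3 Control libraries. Its log2 difference was 6.90 (SE 1.012, limma adjusted p = 0.0546). Igkv3-4 was the most used segment of AIA, at 1823, 57.1, 2986 and 4801 FPKM in AIA 5, 10, 31 and 38, against 0, 13.1 and 0 FPKM in Control 15, 16 and 17. The groups did not overlap here either, although AIA 10 lay far below the other 3. Its log2 difference was 8.84 (SE 1.74, limma adjusted p = 0.0637). Igkv1-135 was at 2059, 6.49, 2006 and 585 FPKM in the AIA libraries in the same order, against 1.08, 14.3 and 0 FPKM in Control. AIA 10 lay below Control 16 for this segment, so the groups overlapped (log2 difference 6.86, SE 2.27, limma adjusted p = 0.120).

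Without the libraries labelled Control 17 and Acu 4, 30 of the 95 segments rose in AIA (n = 4) against Control (n = 2) at a limma adjusted p under 0.05, beside 4.36% of 16067 genes called higher. In this limma fit Igkv4-57 rose by 6.40 on the log2 scale (SE 0.637, limma adjusted p = 0.00277) and Igkv3-4 by 8.21 (SE 1.75, limma adjusted p = 0.0207). Families were spread through the 30, with Igkv3-1, Igkv3-2, Igkv4-55, Igkv6-25, Igkv9-124, Igkv12-41 and Igkv14-111 among them. Igkv1-135, Igkv10-96 and Igkv15-103 did not pass. The count rested on Control 15, which held little B cell RNA: without it as well only Igkv4-57 was called (5.93, SE 0.84, limma adjusted p = 0.0244), beside 0.466% of genes called higher. A fit without AIA 10 as well as the libraries labelled Control 17 and Acu 4, chosen after the values were seen, called 83 segments beside 9.25% of genes.

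Among 8 plasma cell genes 1 was called. It was Jchain, which links antibody units and marks antibody secretion, at 2040, 2557, 1534 and 1582 FPKM in AIA 5, 10, 31 and 38 against 4.47, 5.32 and 0.776 FPKM in Control 15, 16 and 17 (log2 difference 8.90, SE 0.93, limma adjusted p = 0.0297). The list summed to 2615 to 4344 FPKM in AIA and 99.3 to 150 FPKM in Control, with none of its genes at 0, and most of that sum was Jchain and Mzb1 in AIA. Xbp1, a factor of secretory cells, was at 115, 37.2, 125 and 180 FPKM in AIA 5, 10, 31 and 38, against 90.8, 30.2 and 118 FPKM in Control 15, 16 and 17, and these ranges overlapped. Of the 8 B cell genes 0 were called, though all 8 had positive differences. Of 6 T cell genes 0 were called and all 6 had positive differences too, at a median of 3.41. They summed to 222 to 307 FPKM in AIA, against 2.99, 174 and 2.28 FPKM in Control 15, 16 and 17, with none at 0. The part of these cell types in the segments' levels was not tested. The octamer factors that drive immunoglobulin promoters, Pou2f1, Pou2f2 and the coactivator Pou2af1, gave 0 of 3 called. Per FPKM of Cd79a, the segments summed to 105, 4.003, 67.4 and 78.7 FPKM in AIA 5, 10, 31 and 38, against 12.8, 1.504 and 15.5 FPKM in Control 15, 16 and 17. Control 16, the Control library with a B cell level like that of AIA, thus had the lowest value of all. The ratio was chosen after its values were seen and was not tested.

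Between Acu and AIA the question was whether acupuncture altered kappa segment RNA in adjuvant-treated mice. No difference in level was found that held across settings. The mean log2 of the summed Igkv level was 12.24 in Acu and 13.69 in AIA, a difference of −1.44 (two-sided exact permutation test, p = 0.343, adjusted p = 0.343). Without the library labelled Acu 4 it was 0.35, and without AIA 10 and the libraries labelled Acu 4 and Control 17 it was −0.95, so the direction turned on Acu 4 and AIA 10. limma called 0 of 95 segments in either direction, beside 0% of all genes called higher, with 0 higher and 3 lower at an unadjusted p under 0.05, beside 2.37% and 2.33% of all genes, so the 3 are near the background. voom likewise called 0, and array weights called 0 higher and 2 lower, beside 0.37% and 0.206% of genes. This comparison and the one between AIA and Control share the 4 AIA libraries.

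The 3 segments under that unadjusted p were Igkv6-29, Igkv4-55 and Igkv4-57. Igkv6-29 stood at 0, 4.34 and 2.79 FPKM in Acu 4, 6 and 28, against 50.4, 6.35, 12.9 and 33.9 FPKM in AIA 5, 10, 31 and 38. It was the one segment of the 95 whose libraries did not overlap between Acu and AIA, 1 lower beside 5.1% of all genes and 0 higher beside 6.04%. Its log2 difference was −2.92 (SE 0.74, limma adjusted p = 0.746). Igkv6-29 was 98.7% identical to Igkv6-20, the closest pair among the 95 segments compared by sequence, so its reads are uncertain. Igkv6-20 stood at 4.35, 91.8 and 40.1 FPKM in Acu 4, 6 and 28, against 336, 1.41, 119 and 213 FPKM in AIA 5, 10, 31 and 38, and these ranges overlapped. Igkv4-55 was at 0.8286, 41.1 and 34.96 FPKM in Acu 4, 6 and 28 and at 289, 13.5, 362 and 364 FPKM in AIA 5, 10, 31 and 38 (log2 difference −3.45, SE 1.38, limma adjusted p = 0.746).

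The segments were set beside their constant gene, since every kappa transcript of a mature B cell carries both. Summed Igkv per 100 FPKM of Igkc was 63.9, 84.4 and 54.8 in Acu 4, 6 and 28, against 20.9, 0.932, 32.5 and 38.6 in AIA 5, 10, 31 and 38. It was 42.4, 20.9 and 20.8 in Control 15, 16 and 17. All 3 Acu libraries lay above all other libraries, and this held without the library labelled Acu 4. Igkc itself was at 624, 27030 and 22689 FPKM in Acu 4, 6 and 28, against 151191, 93548, 90825 and 96078 FPKM in AIA 5, 10, 31 and 38. Acu 6 and 28 therefore had lower Igkc than any AIA library. Their Igkv sums, 22826 and 12434 FPKM, were also below those of AIA 5, 31 and 38 and above that of AIA 10 alone. Heavy chain segments per 100 FPKM of their constant genes gave 95.6, 61.6 and 40.5 in Acu 4, 6 and 28, against 13.9, 0.388, 33.0 and 36.1 in AIA 5, 10, 31 and 38. For lambda segments the values were 93.4, 204 and 92.1 against 79.4, 75.05, 118 and 150 in the same order. For T cell receptor beta segments they were 8.60, 45.5 and 22.1 against 9.08, 0.182, 19.8 and 30.2. The lambda and T cell receptor ratios thus overlapped between Acu and AIA. These ratios were chosen after their values were seen and carry no test.

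AIA 10 stood apart from the other AIA libraries in this ratio. Its Igkc level of 93548 FPKM lay within the AIA range, yet its Igkv sum of 872 FPKM lay far below the 29497 to 37044 FPKM of the other 3. Heavy chain segments and T cell receptor beta segments were low beside their constant genes too, at 0.388 per 100 and 0.182 per 100, against 13.9 to 36.1 and 9.08 to 30.2 in the other AIA libraries. Lambda segments stood at 75.05 per 100 FPKM of lambda constant genes in AIA 10 against 79.4 to 150 in the other 3. Of the joining segments, Igkj1 had 34.8 FPKM in AIA 10 and Igkj2, Igkj3, Igkj4 and Igkj5 were at 0. The mitochondrial gene mt-Co1 was at 231 FPKM in AIA 10 and 10275 to 19122 FPKM in the other 3. The cause was not tested.

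Between Acu and Control the segments again lay higher in the treated nodes on average. All 99 segments above 0 had a higher mean in Acu, at a median log2 difference of 3.89 against 0.00 over all 32104 genes. The Control libraries were the same, and the segments are not independent of one another here either. The mean log2 of the summed level was 12.24 in Acu and 5.69 in Control, a difference of 6.55 (two-sided exact permutation test, p = 0.2, adjusted p = 0.3, for 3 against 3 libraries, where 0.1 is the smallest possible). limma called 0 of 95 segments, beside 0% of all genes, with 35 higher and 0 lower at an unadjusted p under 0.05, beside 3.29% and 4.2% of all genes. voom called 0 and array weights called 59 higher and 0 lower, beside 4.87% and 7.28% of genes. For 18 of the 95 the libraries did not overlap, all higher in Acu, against 4.87% of all genes.

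Igkv3-1, the segment nearest to Igkc, had the smallest p in this comparison. It was at 11.4, 188 and 61.1 FPKM in Acu 4, 6 and 28, against 0, 4.15 and 0.181 FPKM in Control 15, 16 and 17 (log2 difference 4.85, SE 1.12, limma adjusted p = 0.491). Igkv12-41 was at 20.8, 1455 and 77.4 FPKM in Acu 4, 6 and 28, against 0, 6.34 and 0 FPKM in Control 15, 16 and 17 (log2 difference 6.12, SE 1.54, limma adjusted p = 0.512). In both cases even the library labelled Acu 4 lay above every Control library. Without the libraries labelled Control 17 and Acu 4, 6 of 95 segments rose in Acu (n = 2) against Control (n = 2), beside 0.878% of genes. They were Igkv4-57, Igkv3-2, Igkv5-48, Igkv3-1, Igkv1-117 and Igkv12-46, at log2 differences of 5.34 to 7.08 and limma adjusted p of 0.0157 to 0.0497. Leaving out Control 15 as well left Control 16 as the only Control library, with a median log2 difference of 4.07 over the 95 segments. The fit without AIA 10 and the libraries labelled Control 17 and Acu 4, which shares the AIA estimate of spread, called 68 beside 5.39%.

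How evenly the segments were used was measured as the effective number, the exponential of the Shannon entropy of the shares, which would be 100 if all were used alike. It was 24.9, 53.2 and 40.6 in Acu 4, 6 and 28, 44.5, 32.4, 46.2 and 48.6 in AIA 5, 10, 31 and 38, and 22.3, 61.8 and 15.2 in Control 15, 16 and 17. Control 16 had the highest effective number, and Control 15 and the library labelled Control 17, with the fewest reads, had the lowest. The effective number depends on how many segments were seen. The ratio of its log to the log of the number of segments above 0, an evenness that is 1 when all segments seen are used alike, was 0.773, 0.869 and 0.808 in Acu 4, 6 and 28, 0.831, 0.872, 0.836 and 0.849 in AIA 5, 10, 31 and 38, and 0.904, 0.914 and 0.923 in Control 15, 16 and 17. By this evenness all 3 Control libraries lay above all others, though 2 of them had 165 and 56 Igkv reads. It was described after its values were seen and carries no test. The means were 42.9 in AIA and 33.1 in Control, a difference of 9.85 (two-sided exact permutation test, p = 0.514, adjusted p = 0.7). They were 39.6 in Acu and 42.9 in AIA, a difference of −3.36 (exact permutation p = 0.686, adjusted p = 0.7). Acu exceeded Control by 6.49 (exact permutation p = 0.7, adjusted p = 0.7). The SD was 14.2 in Acu, 7.20 in AIA and 25.1 in Control, so each difference was smaller than the larger SD of its 2 groups, and each reversed under at least 1 other setting.

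The number of Igkv reads differed widely between libraries, so the libraries were also compared at 1 depth. The effective number did not simply follow depth, since Control 16 had the highest on 2632 Igkv reads. In 2351 Igkv reads, the total of the library labelled Acu 4, the number of segments expected was 64, 84.0 and 81.2 in Acu 4, 6 and 28. It was 80.8, 53.6, 81.8 and 84.4 in AIA 5, 10, 31 and 38, and 90.6 in Control 16. Control 15 and the library labelled Control 17 had fewer reads than this. The 5 deepest libraries thus lay within 80.8 to 84.4, and Control 16 lay above them all. AIA 10 and the library labelled Acu 4 held fewer segments at this depth than the other 6 libraries compared. The saline value rests on 1 library, and the difference from it has no replicate check.

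**Figure D2:**
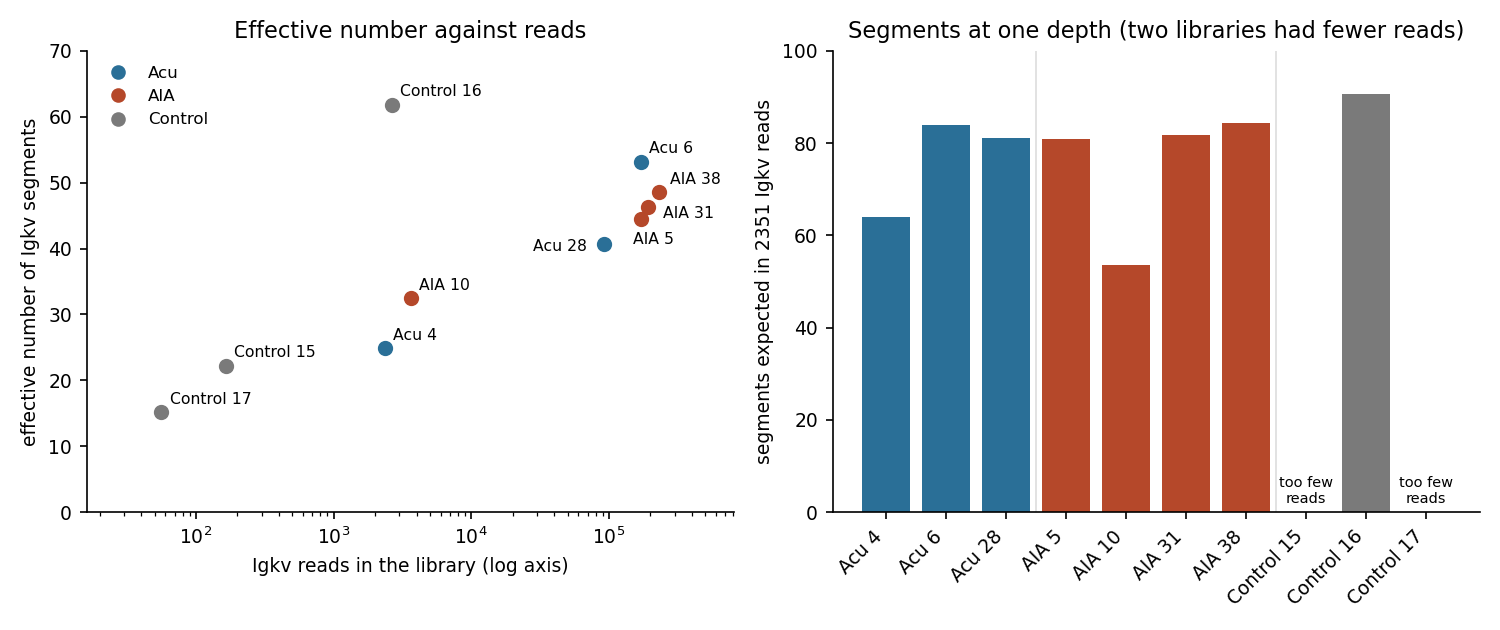
Left, effective number of Igkv segments against the Igkv reads of each library on a log axis; right, segments expected in 2351 Igkv reads, with no bar for the 2 libraries below that number. Control 16 is highest in both panels, at 61.8 and 90.6, and AIA 10 has the lowest bar, 53.6.

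The leading segment differed from library to library. It was Igkv15-103 in the library labelled Acu 4 (24.6% of summed Igkv FPKM), Igkv12-41 in Acu 6 (6.38%, just above Igkv1-135 at 5.75%) and Igkv3-4 in Acu 28 (10.04%). In AIA it was Igkv1-135 in library 5 (6.51%), Igkv4-57 in library 10 (15.2%) and Igkv3-4 in libraries 31 (10.1%) and 38 (13.0%). In Control 16 no segment passed 5%, and Igkv10-96 led with 4.46%. In reads, Igkv15-103 took 24.9% of 2351 in the library labelled Acu 4 (95% Wilson interval 23.2 to 26.7%) and Igkv4-57 took 14.6% of 3618 in AIA 10 (13.5 to 15.8%). In Acu 6 the order was the other way in reads, with 6.17% for Igkv1-135 (6.05 to 6.28%) and 6.03% for Igkv12-41 (5.91 to 6.14%), and the intervals overlapped. Igkv10-96 took 4.33% of 2632 in Control 16 (3.62 to 5.18%). Intervals cover counting error only, since reads copied from the same molecule are not independent.

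Igkv3-4 was the most used segment over the AIA libraries and stood at or near the top in Acu. Its share was 9.14%, 3.55% and 10.04% in Acu 4, 6 and 28, 5.76%, 6.55%, 10.1% and 13.0% in AIA 5, 10, 31 and 38, and 0%, 2.85% and 0% in Control 15, 16 and 17. Every adjuvant-treated library exceeded every Control library, although with 165 and 56 reads a share of up to 1.82% or 5.36% could give 0 reads in Control 15 and the library labelled Control 17. The mean was 7.58 ± 3.52% in Acu (SD, n = 3), 8.85 ± 3.34% in AIA (SD, n = 4) and 0.948 ± 1.64% in Control (SD, n = 3). Igkv10-96 varied 2.21-fold over the 5 deepest libraries. It took 2.63%, 4.27% and 6.15% in Acu 4, 6 and 28, 2.78%, 1.94%, 4.48% and 4.49% in AIA 5, 10, 31 and 38, and 0%, 4.46% and 3.73% in Control 15, 16 and 17. The ranges overlapped between all groups. Igkv1-135, which lies near the far end of the locus, took 0.959%, 5.75% and 1.86% in Acu 4, 6 and 28 and 6.51%, 0.744%, 6.80% and 1.58% in AIA 5, 10, 31 and 38.

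Other segments were large in 1 library and small in its group. Igkv15-103, at 24.6% in the library labelled Acu 4, took 0.330% in Acu 6 and 0.421% in Acu 28, and at most 1.49% in the AIA libraries and 1.79% in the Control libraries. Igkv4-57, at 15.2% in AIA 10, took 0.562%, 1.29% and 0.979% in AIA 5, 31 and 38. Igkv9-124 took 0.204% in Acu 28 and 5.22% in AIA 38, a 25.6-fold range over the 5 deepest libraries. Igkv12-41 took 6.38% in Acu 6 and 0.622% in Acu 28. Igkv1-117 took 1.18% in Acu 6 and 5.89% in Acu 28. The mean ranks of Igkv15-103 in Acu and Igkv4-57 in AIA, first and second, thus each rest on 1 library.

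**Figure D3:**
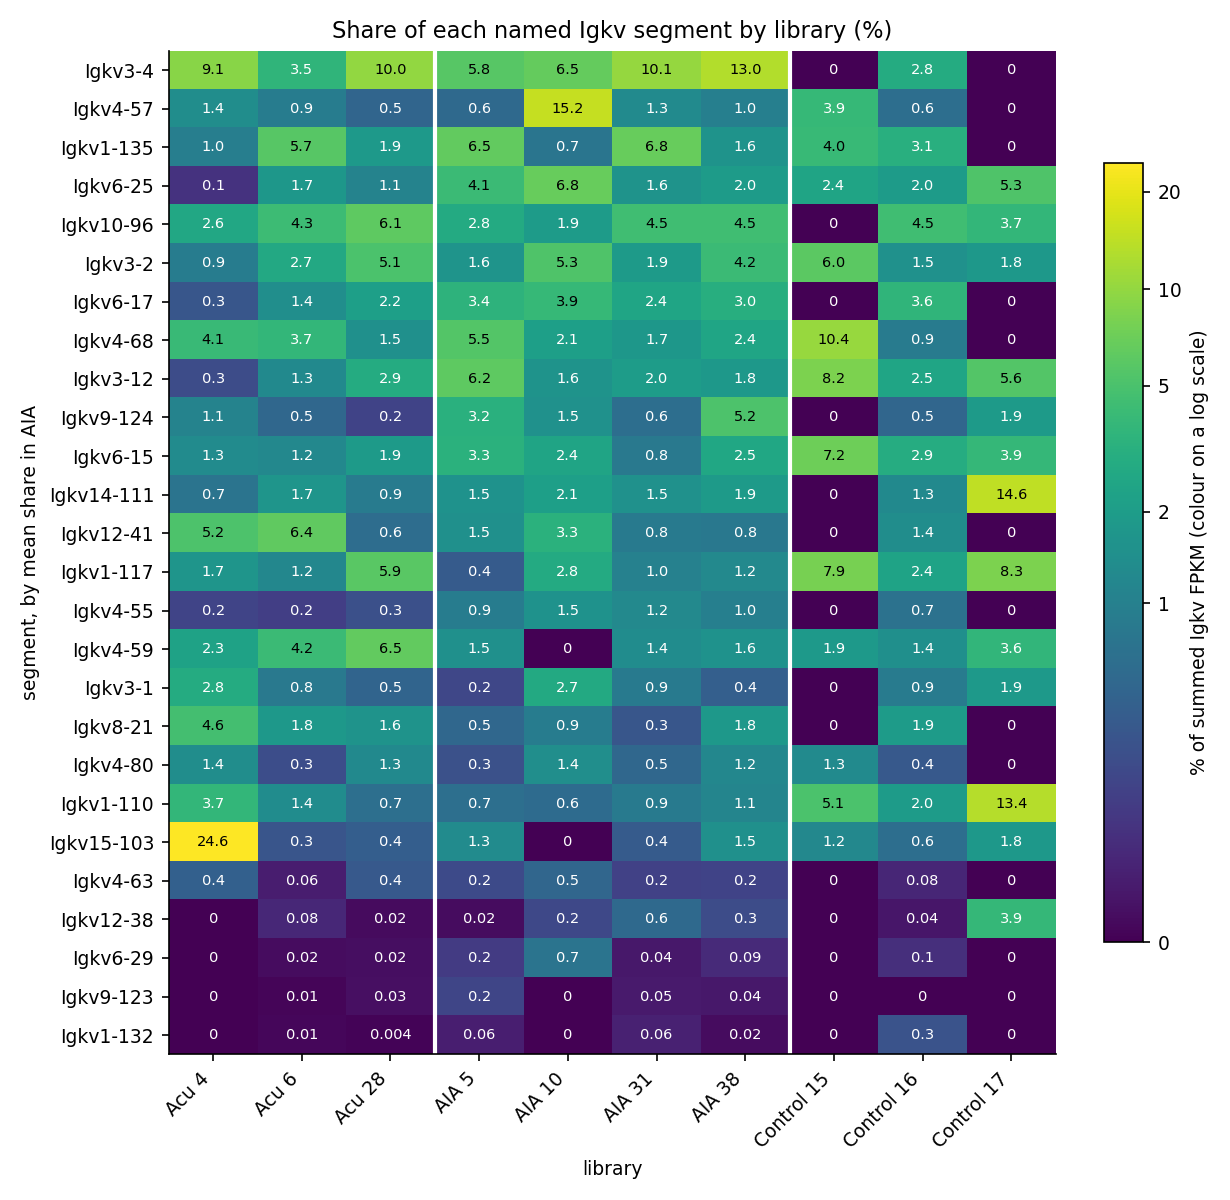
Share of summed Igkv FPKM (%) of the named segments in each library, with segments ordered by their mean in AIA and colour on a log scale. Igkv3-4 takes 3.55% (Acu 6) to 13.0% (AIA 38) in the 7 adjuvant-treated libraries, against 2.85% in Control 16. The 24.6% of Igkv15-103 and the 15.2% of Igkv4-57 each stand in a single library.

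A common core was shared by the deep libraries. Of the 100 segments, 14 took at least 1% in all 5 deepest libraries, 41 in none of them, and 45 in some. The 14 were Igkv3-4, Igkv1-135, Igkv10-96, Igkv4-68, Igkv3-2, Igkv3-12, Igkv6-17, Igkv6-23, Igkv4-59, Igkv6-25, Igkv19-93, Igkv16-104, Igkv6-32 and Igkv3-7. In Control 16, 13 of the 14 also took at least 1%, with Igkv4-68 at 0.891%. Above that core the libraries diverged: 13 segments passed 5% in some deep library, 11 of them in a single library and 0 in all 5. The overlap of 2 libraries, the sum over segments of the smaller share, was 59.2% between Acu 6 and Acu 28 and 61.7 to 69.2% among AIA 5, 31 and 38. Between the 2 Acu and the 3 AIA libraries it was 56.5 to 67.4%, beside 59.2 to 69.2% within the groups. With Control 16 it was 62.2 and 68.7% for Acu and 67.1 to 70.3% for AIA. AIA 10 and the library labelled Acu 4 overlapped less with the 5 deepest, at 48.5 to 55.4% and 43.3 to 49.8%. They had 3618 and 2351 Igkv reads, and Control 16 had 2632. The cause of the lower overlap was not tested.

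Few segments differed in share between groups without overlap. Between Acu and AIA, Igkv4-59 was higher and Igkv6-17, Igkv4-55 and Igkv6-29 were lower in all 3 Acu libraries than in all 4 AIA libraries, 1 and 3 of 100. Igkv4-59 took 2.27%, 4.19% and 6.50% in Acu 4, 6 and 28, against 1.48%, 0%, 1.35% and 1.55% in AIA 5, 10, 31 and 38. The 0% in AIA 10 was 0 of 3618 reads, which allows a share of up to 0.0829%. Igkv6-17 took 0.334%, 1.42% and 2.16% in Acu 4, 6 and 28, against 3.43%, 3.92%, 2.43% and 3.05% in AIA 5, 10, 31 and 38. Between AIA and Control, 5 segments were higher and 1 was lower without overlap, and between Acu and Control 2 were higher and 3 were lower. Complete separation has a two-sided exact permutation p of 0.0571 for 4 against 3 libraries and 0.1 for 3 against 3. Several of 100 segments can therefore separate with no difference between groups. With 165 and 56 Igkv reads, Control 15 and the library labelled Control 17 can show small shares as 0. Igkv1-110, the lower one in AIA, took 0.651%, 0.580%, 0.856% and 1.13% in AIA 5, 10, 31 and 38, against 5.09%, 1.96% and 13.4% in Control 15, 16 and 17. Those Control shares rest on 9, 56 and 8 reads of the segment. Shares sum to 100% in each library, so 1 large segment lowers the rest. These segments were picked for their values and carry no test.

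Igkv3 had the highest mean share of the families in AIA and Acu, although in Acu this rested on Acu 28. Igkv4 exceeded it in the library labelled Acu 4, where Igkv15 led, in Acu 6, and in AIA 10. The 9 segments of Igkv3 are the nearest to Igkc, and together they took 14.5%, 14.7% and 24.9% in Acu 4, 6 and 28, 22.6%, 20.0%, 17.7% and 23.3% in AIA 5, 10, 31 and 38, and 21.6%, 12.4% and 9.24% in Control 15, 16 and 17. It held 9% of the segments and a larger share of summed Igkv FPKM in every library. In the library labelled Control 17 that share rested on 5 of 56 Igkv reads. Igkv4, the largest family with 26 segments, took 17.1 ± 0.602% in Acu (SD, n = 3), 19.6 ± 3.75% in AIA (SD, n = 4) and 16.6 ± 4.15% in Control (SD, n = 3), below its 26% of segments. Igkv6, with 9 segments, took 9.002 ± 2.94%, 14.3 ± 3.57% and 16.1 ± 4.07% in Acu, AIA and Control. Igkv1, with 10 segments, took 9.07 ± 2.26%, 6.96 ± 2.37% and 15.996 ± 6.23% in the same groups. Igkv8 with 10 segments took 6.67 ± 2.74%, 6.44 ± 3.26% and 4.95 ± 4.29%. Igkv12 with 6 segments took 7.98 ± 3.68%, 5.24 ± 1.91% and 6.84 ± 0.5002%. Igkv5 with 5 segments took 4.74 ± 1.56%, 3.28 ± 0.802% and 2.12 ± 1.73%. These Control means weigh all libraries alike, although Control 15 and the library labelled Control 17 had only 165 and 56 Igkv reads. For Igkv1 the Control shares were 16.99%, 9.33% and 21.67% in Control 15, 16 and 17, on 30, 261 and 13 reads. Control 16 lay within the Igkv1 ranges of Acu (6.57 to 10.97%) and AIA (4.41 to 9.62%). The higher Control mean of Igkv1 thus rests on the libraries with few reads. Among the 5 deepest libraries, overlap by family was 78.2 to 88.1%, against 56.5 to 69.2% by segment, and merging segments can only raise it.

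**Figure D4:**
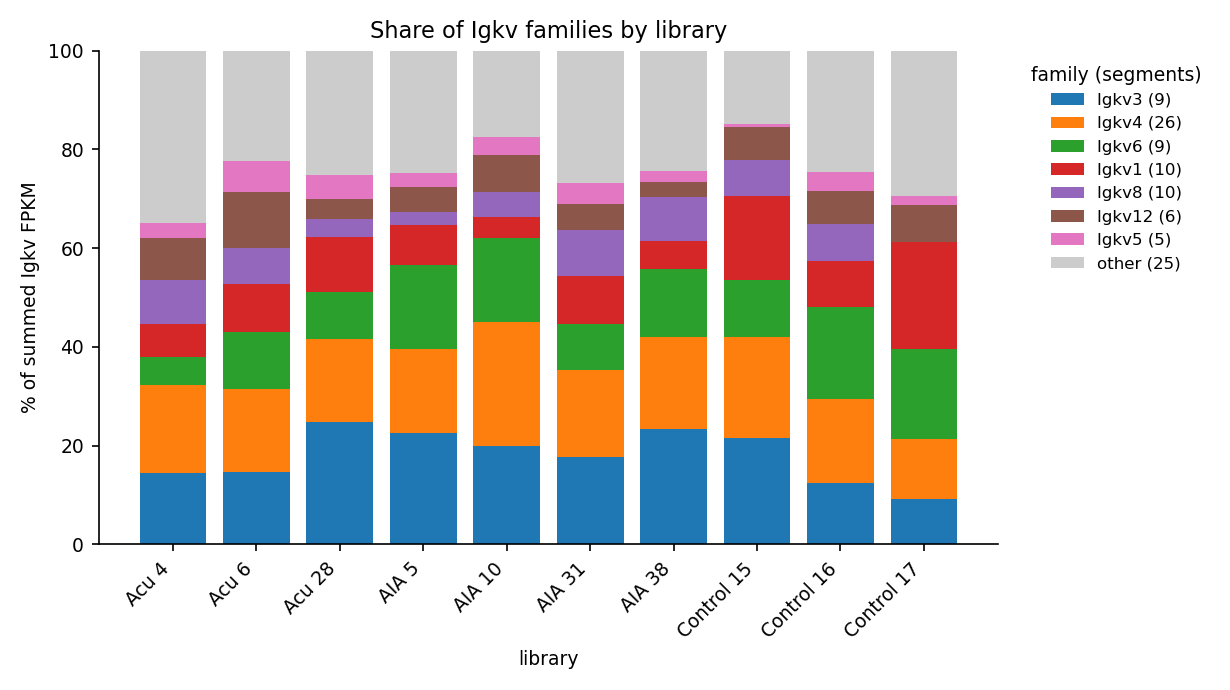
Share of summed Igkv FPKM (%) of the 7 families with at least 5 segments and of all others, stacked for each library, with the number of segments in brackets. Igkv3 takes 9.24 to 24.9% of the bars, and Igkv4 stays at 16.7 to 17.8% in all 3 Acu libraries.

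Usage was also set against position along the locus. The 50 segments nearer to Igkc took 49.6%, 58.8% and 56.4% of summed Igkv FPKM in Acu 4, 6 and 28, 55.6%, 71.5%, 52.2% and 58.8% in AIA 5, 10, 31 and 38, and 56.4%, 56.4% and 42.2% in Control 15, 16 and 17. AIA 10 lay above all others here. Igkv4-57, its leading segment, lies in that nearer part, and how far it accounts for the difference was not tested. Segments on the minus strand, 62 of the 100, took 51.2 ± 6.20% in Acu (SD, n = 3), 53.7 ± 3.12% in AIA (SD, n = 4) and 47.7 ± 9.08% in Control (SD, n = 3), below their share of segments. The groups overlapped in both measures.

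**Figure D5:**
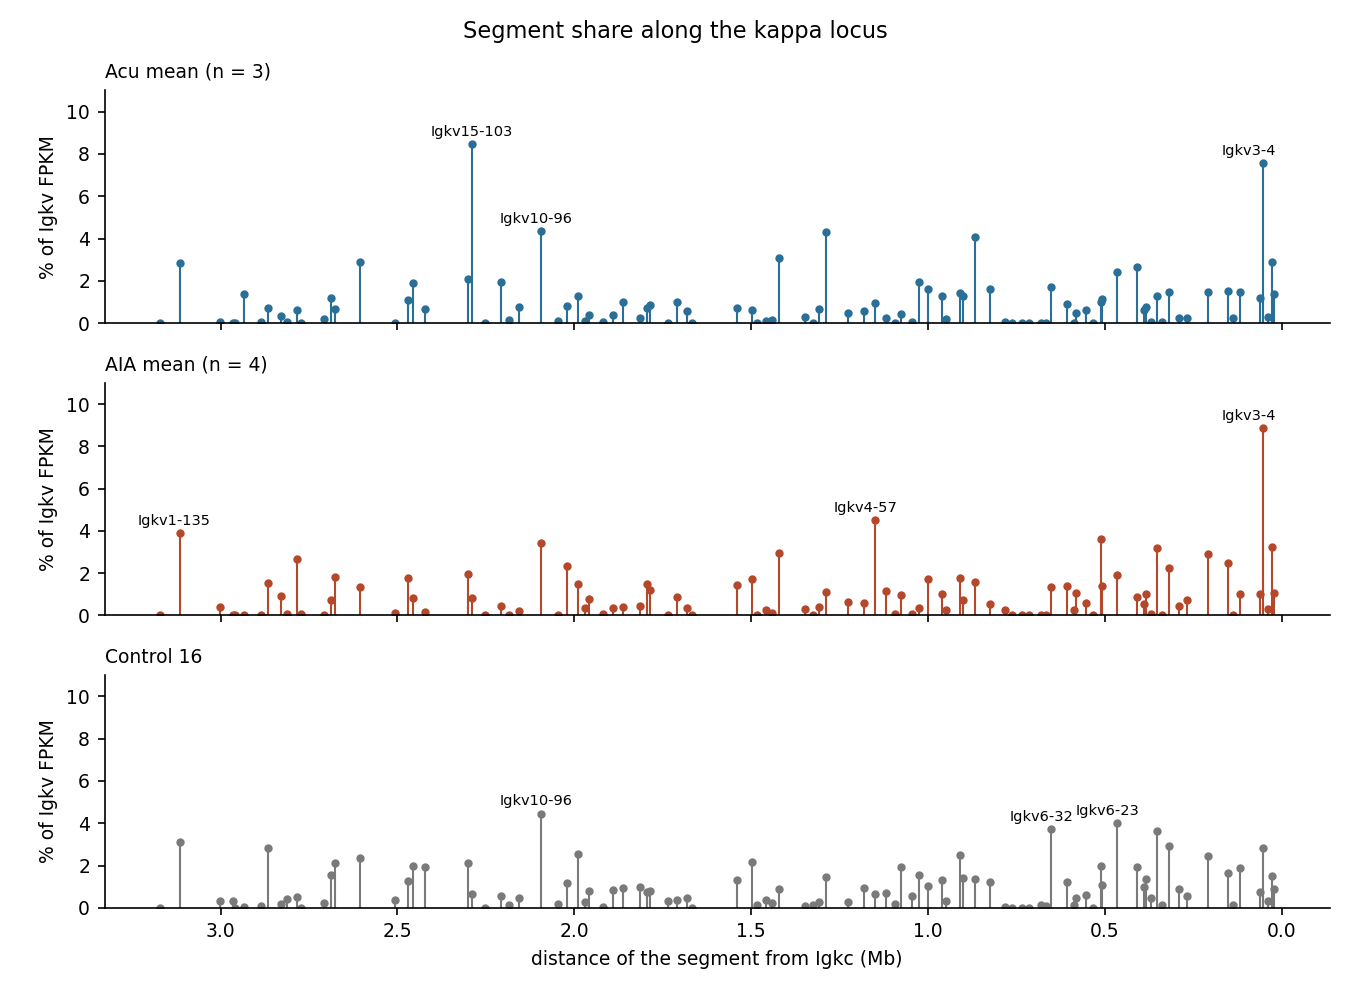
Share of summed Igkv FPKM (%) of each segment against its distance from Igkc in megabases, as the mean of the 3 Acu libraries, the mean of the 4 AIA libraries and the single library Control 16. Igkv3-4, close to Igkc, is tall in Acu and AIA (means 7.58% and 8.85%), while Control 16 shows no share above 4.46%.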

How the data were processed

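RNA was measured by sequencing, with Trizol extraction and NEBNext Ultra RNA libraries per the labels' protocols. The authors deposited 1 table of FPKM values per gene and library. The submitters' processing notes name the build mm10, DESeq2 1.16.1, HISAT2 2.0.5, featureCounts 1.5.0-p3 and StringTie 1.3.3b, with no role or order given. The members and gene lists used here were chosen with earlier results of these data known.

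Each library's FPKM times gene length fell on whole multiples of a single step for 100% of values above 0 (tolerance 0.01 reads), so reads were recovered and used to describe depth. The 1186 rows without a gene name entered no ranking. The coordinates of 100 of 100 segments equal those of GENCODE vM21 (GRCm38), and 95 have a transcript of the listed length, which gave the sequences.

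limma 3.58.1 (R 4.3.3) was fitted to log2(FPKM + 1) over all 10 libraries, with a trend, for the 17010 genes with at least 0.5 FPKM in at least 3 libraries. P-values were adjusted by Benjamini-Hochberg over all of these, with a threshold of 0.05. Fold changes on this scale understate those of low genes. Summed levels and effective numbers were compared by two-sided exact permutation tests, adjusted over the 3 comparisons. Shares are percentages of a library's summed Igkv FPKM. The limma fit and the usage measures were tested on simulated data. Tables and exact tests used pandas 2.3.3, numpy 2.4.6 and scipy 1.17.1 in Python 3.11.15, with matplotlib 3.10.9 for figures.

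Segments named are the 10 with the highest mean share in AIA, the 5 highest in Acu and in Control, the leader of each library and the 8 with the smallest limma p in each comparison. Families with at least 5 members are described. Segments named outside this rule were chosen after their values were seen. They are the members of the common core, the segments below the filter, those called in a refit, those whose groups did not overlap, and sequence neighbours.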

Additional observations from a re-analysis of the deposited data

Results flagged for a closer look

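Among the AIA libraries, the only group large enough to look for a library far from the rest, 39 values were examined and 5 stood apart. A single value taken without regard to its size does so by chance about 1 in 20 times. The 39 are not independent, since the shares in a library have a common total. Igkv4-57 was also named in part for its lead in AIA 10, so the count of 5 is no test. Igkv3-12 took 6.17% of summed Igkv FPKM in AIA 5, against 1.58 to 2.0003% in AIA 10, 31 and 38. The other 4 were all in AIA 10, which had 3618 Igkv reads. There Igkv4-57 took 15.2%, against 0.562 to 1.29% in the other 3 AIA libraries. Igkv4-59 took 0%, against 1.35 to 1.55%. Igkv4-63 took 0.517%, against 0.191 to 0.245%, and Igkv6-29 took 0.728%, against 0.0438 to 0.159%. In data outside the comparisons, the 60 Igkv pseudogenes summed to 53.7 FPKM in AIA 31, against at most 9.03 FPKM in the Control libraries. This was 0.182% of the Igkv FPKM of that library, and 1.92% in Control 16.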

How the results depend on the processing

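Calls of single segments depended on which libraries entered the limma fit. Segments called higher in AIA than in Control numbered 0 with all libraries and 77 with array weights. They numbered 30 without the libraries labelled Control 17 and Acu 4, and 83 without AIA 10 as well. Leaving out single libraries gave 0 to 42, with 1 without AIA 10, 4 without the library labelled Control 17 and 42 without that labelled Acu 4. Between Acu and Control the called counts were 59 with array weights, 6 without the libraries labelled Control 17 and Acu 4, 68 without AIA 10 as well, and 0 to 2 with single libraries left out, 2 of them without the library labelled Acu 4. Between Acu and AIA 2 were called lower with array weights and 0 under the other settings. Another pseudocount, no filter, another scaling and voom called 0 in each comparison. A lone Control 16 is assumed to vary like the other groups. The difference in summed level between Acu and AIA, −1.44, turned to 0.35 without the library labelled Acu 4, alone or with Control 17, and lay between −2.75 and 0.35 over single libraries left out, −2.75 being without AIA 10. Without both labelled libraries and AIA 10 it was −0.95. The other summed levels kept their sign in all settings run. The effective number was less stable. AIA minus Control turned to −0.436 with the inverse Simpson index and −18.9 among libraries with at least 500 Igkv reads, where Control was 1 library, and lay between 0.892 (without the library labelled Control 17) and 24.2 (without Control 16) over single libraries left out. Acu minus Control turned to −2.76 and −22.2 under the same settings, and lay between −2.47 (without the library labelled Control 17) and 20.9 (without Control 16) over single libraries left out, with −0.315 without Acu 6. Acu minus AIA turned to 0.0966 by families, 3.98 without the libraries labelled Control 17 and Acu 4 and 0.487 without AIA 10 as well, and lay between −10.2 (without Acu 6) and 3.98 (without the library labelled Acu 4) over single libraries left out. The cause of these shifts was not tested. The settings without AIA 10 and both labelled libraries were chosen after seeing the data. No paired analysis was possible because the groups share no replicate number.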

Other observations

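The 5 joining segments, to which an Igkv segment is joined, differed in their balance between libraries. Igkj1 stood at 0, 424 and 205 FPKM in Acu 4, 6 and 28, and at 454, 34.8, 638 and 472 FPKM in AIA 5, 10, 31 and 38. Igkj5 stood at 7.48, 802 and 355 FPKM in Acu 4, 6 and 28, and at 248, 0, 310 and 192 FPKM in AIA 5, 10, 31 and 38. Igkj5 thus exceeded Igkj1 in all 3 Acu libraries, and Igkj1 exceeded Igkj5 in all 4 AIA libraries. In the library labelled Acu 4 and in AIA 10 this order rested on few reads. In Control 16, Igkj1 had 15.3 FPKM and Igkj5 had 32.4 FPKM, while all 5 were at 0 in Control 15 and in the library labelled Control 17. These exons are very short, and how reads were assigned to them was not tested. The pattern was noticed after the values were seen and was not tested.

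The share of kappa in the constant genes of both light chains, Igkc beside the Iglc genes, was 96.1, 97.2 and 95.5 per 100 FPKM in Acu 4, 6 and 28, and 96.5, 97.3, 96.6 and 97.96 in AIA 5, 10, 31 and 38. It was 92.5, 80.1 and 97.5 in Control 15, 16 and 17, lowest in Control 16. Among variable segments, Igkv made up 31.04% of the light chain sum in AIA 10, against 85.8 to 94.5% in the other 9 libraries.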
